A study of Mus musculus with 3 samples.

Results

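The cytochrome P450 family was described across 3 RNA-seq libraries of mouse cornea. Its members were the protein-coding genes of the deposited table named Cyp followed by a family number, a subfamily letter and a gene number, which gave 53 genes of the 21760 in the table. Of these, 27 had at least 20 counts in at least 1 library and were compared, and the other 26 stayed under that minimum. The PNU-282987 library came from mice dosed 3 times a day with eyedrops of the compound, which activates α7 nicotinic receptors. Whether their lacrimal gland was also removed is not in the labels. In the excision group the tear-producing lacrimal gland had been removed, a surgical model of dry eye. Sham mice received an incision at that place which spared the glands. Strain, age, sex, time after surgery and whether corneas were pooled are not given in the labels. There was 1 library per group, so each ratio below compares 2 libraries, carries a 95% counting interval that covers counting error only, and has no test against the spread between animals.

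Cytochrome P450 enzymes are haem-containing monooxygenases that insert an oxygen atom into lipids, steroids, retinoids, vitamin D and foreign compounds. Most sit in the endoplasmic reticulum and receive electrons from the reductase encoded by Por, whereas the mitochondrial members use ferredoxin. In surface epithelia they clear inhaled or applied chemicals, limit retinoic acid and oxidise fatty acids to signalling lipids. In the annotation columns deposited with the counts, 46 of the 53 genes carried the term heme binding, 19 the term arachidonic acid epoxygenase activity and 10 the term retinoic acid 4-hydroxylase activity.

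Cyp2a5, a member whose level differed more than 2-fold in each comparison, has a near-identical relative on chromosome 7, Cyp2a4, and the sequences of the pair show what its counts rest on. The promoter windows are from RefSeq, build GRCm38.p6, with 250 bases before and 50 bases after the start of transcription, both on the plus strand. Capitals mark the 5 bases that differ among the 299 aligned. The Cyp2a5 window is chr7:26835089-26835388 and the Cyp2a4 window chr7:26306942-26307241.
Cyp2a5: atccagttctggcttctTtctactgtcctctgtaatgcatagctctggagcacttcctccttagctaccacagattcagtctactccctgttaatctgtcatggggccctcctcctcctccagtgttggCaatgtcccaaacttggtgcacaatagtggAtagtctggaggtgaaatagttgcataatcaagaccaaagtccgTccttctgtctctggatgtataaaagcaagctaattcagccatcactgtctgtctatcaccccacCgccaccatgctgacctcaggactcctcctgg
Cyp2a4: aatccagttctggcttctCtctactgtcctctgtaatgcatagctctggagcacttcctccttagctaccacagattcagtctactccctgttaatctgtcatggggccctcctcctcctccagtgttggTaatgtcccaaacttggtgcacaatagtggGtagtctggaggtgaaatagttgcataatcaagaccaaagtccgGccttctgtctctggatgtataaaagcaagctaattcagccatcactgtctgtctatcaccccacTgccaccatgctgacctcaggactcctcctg
Both windows held the letters TATAAA and AGGTCA (read on either strand). In both, the AGGTCA match was the reverse-strand letters TGACCT near the end of the window, after the start of transcription. For coding sequence, the longest open reading frame (ATG to stop) of a GENCODE M21 transcript of each gene was used. It was not checked against the annotated coding sequence. The frames had 1542 bases for Cyp2a5 and 1485 for Cyp2a4, and were 98.5% identical over their aligned bases. The 75 bases with the most differences were chosen to show how a read can be assigned to one copy. Positions run from 652 to 726 of the Cyp2a5 frame and from 595 to 669 of the Cyp2a4 frame. The offset between them depends on the ATG at which each frame begins. Capitals mark the 5 bases that differ.
Cyp2a5: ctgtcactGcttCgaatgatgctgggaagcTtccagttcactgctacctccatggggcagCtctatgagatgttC
Cyp2a4: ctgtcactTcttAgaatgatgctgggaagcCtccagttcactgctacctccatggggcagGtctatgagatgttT
Of all 75-base windows of the Cyp2a5 transcripts, 22.3% also occurred in at least 1 other gene, and 15.7% occurred in Cyp2a4. Cyp2a4 was listed with 3 counts in PNU-282987, 1 in excision and 0 in sham, and the split of reads within the pair is uncertain.

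Before the members are compared, the libraries themselves differed in ways that touch them. Levels are given as CPM, counts relative to the scaled library size. Total counts were 39616004 for PNU-282987, 37692972 for excision and 37703843 for sham. Corneal epithelial markers (Krt12, Krt5, Pax6 and Aldh3a1) were high in every library, with a summed level of 81484 CPM in PNU-282987, 68200 CPM in excision and 75017 CPM in sham, so the defining genes of the labelled tissue were present. Of the 9 lens genes listed, 9 were at least 2-fold lower in excision than in sham, and the list summed to 501 CPM in PNU-282987, 15.9 CPM in excision and 528 CPM in sham, with Mip at 0 in excision. The endothelial list, for the cell layer at the back of the cornea, summed to 331 CPM in PNU-282987, 125 CPM in excision and 579 CPM in sham, and the keratocyte list to 678 CPM, 618 CPM and 1054 CPM in those libraries. All 6 goblet and secretory markers were higher in PNU-282987 than in both other libraries, at a sum of 244 CPM against 4.20 CPM in excision and 1.997 CPM in sham, with Muc5b at 0 in excision and Tff1 at 0 in sham. Exocrine gland markers summed to 33.99 CPM in PNU-282987, 2.48 CPM in excision and 1.77 CPM in sham, with Scgb1b2 and Scgb2b2 at 0 in both of the libraries without PNU-282987. Of the 5 measured gland markers, 4 were called higher in PNU-282987 than in excision and 3 than in sham. Dmbt1, called in neither, had 87 counts in PNU-282987, 84 in excision and 56 in sham. Blood genes summed to 9.61 CPM in PNU-282987, 17.2 CPM in excision and 71.8 CPM in sham, and 4 of the 5 were called lower than in sham in PNU-282987 and likewise 4 in excision. In bulk tissue, fewer cells of a type and less RNA per cell cannot be told apart.

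**Figure D1:**
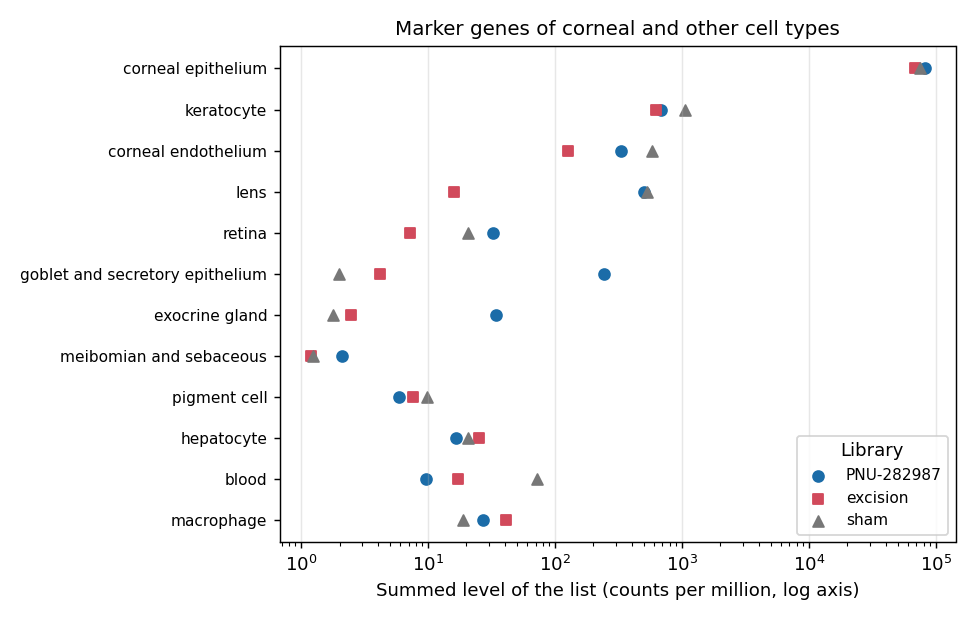
Summed level of each marker list (CPM, log axis) in the PNU-282987 (circle), excision (square) and sham (triangle) libraries. The lens list lies at 501 CPM in PNU-282987, 15.9 CPM in excision and 528 CPM in sham, and the goblet list at 244 CPM in PNU-282987 and under 5 CPM in the others.

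The members by the naming rule together took a small share of each library. P450 genes outside the rule are not in this sum. Among them, Cyp4a12b was at 373 CPM in PNU-282987, 286 CPM in excision and 301 CPM in sham. Cyp51 was at 223 CPM, 258 CPM and 238 CPM in those libraries. The 53 members summed to 632 CPM in PNU-282987 (95% Poisson interval 624 to 640), 412 CPM in excision (405 to 418) and 447 CPM in sham (440.2 to 453). The PNU-282987 library was the highest and the excision library the lowest, and these intervals did not overlap. The 5 members with the most counts, Cyp26b1, Cyp3a13, Cyp2a5, Cyp39a1 and Cyp2f2, held 72.4% of the members' counts in PNU-282987, 59.3% in excision and 63.5% in sham. Per kilobase of exon, Cyp3a13 was the highest of the 53 on average over the libraries (27.02 CPM per kb), before Cyp26b1 (22.4), Cyp2f2 (20.87), Cyp2a5 (20.86), Cyp39a1 (14.1) and Cyp2s1 (7.23). The order of these 6 differed between libraries, since Cyp2a5 led in PNU-282987 and was the lowest of them in sham.

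**Figure D2:**
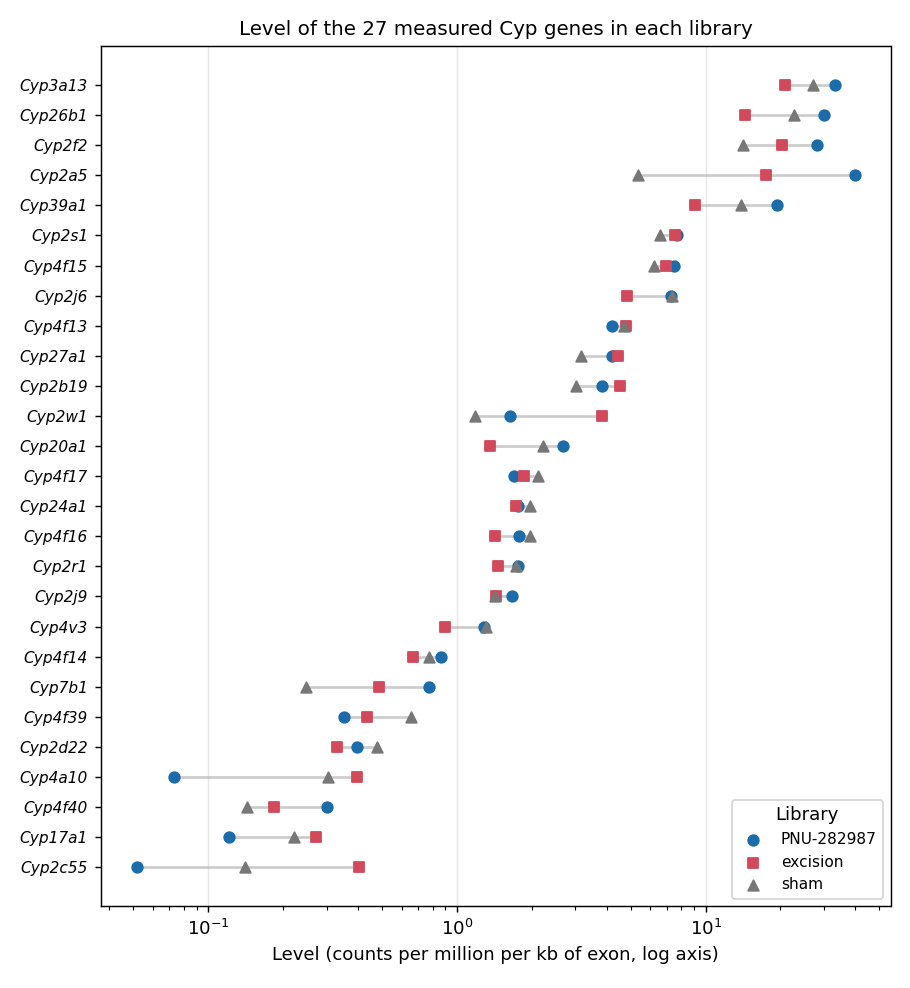
Level of each of the 27 measured members (CPM per kilobase of exon, log axis) in the PNU-282987 (circle), excision (square) and sham (triangle) libraries, with members in order of their mean. Grey lines span the 3 libraries, and the widest gaps are those of Cyp2a5, Cyp2c55 and Cyp4a10.

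A call of higher or lower took a ratio of 2-fold or more whose interval left out equal levels. In PNU-282987 against excision, 3 members were higher and 4 lower, which is 25.9% of the 27, beside 9.52% of all 14180 genes with that many counts (3.90% higher and 5.62% lower). In PNU-282987 against sham, 3 were higher and 1 lower, or 14.8% beside 7.54% of all genes (2.58% higher and 4.96% lower). In excision against sham, 3 were higher and 0 lower, or 11.1% beside 9.49% of all genes (4.01% higher and 5.48% lower). The median log2 ratio of the 27 members was 0.26 for PNU-282987 against excision, 0.22 for PNU-282987 against sham and 0.01 for excision against sham, where the medians of all genes were 0.01, 0.00 and -0.00 in the same order of comparisons. PNU-282987 was the highest of the libraries for 13 of the 27 (34.4% of all genes) and excision the lowest for 11 (36.3% of all genes). Because the comparisons share libraries, they are not independent of each other. Cyp2c55 and Cyp4f40 reached 20 counts in a single library, the one in which each was highest, and Cyp4a10 and Cyp17a1 reached it in excision and sham but not in PNU-282987, so their differences were in part fixed by the minimum. Of the 4 members lower in PNU-282987 than in excision these include Cyp2c55, Cyp4a10 and Cyp17a1, and Cyp4a10 was the 1 lower than in sham, so nothing is read from these counts and shares. With a minimum of 50 counts the counts of lower members were 1 in PNU-282987 against excision and 0 in PNU-282987 against sham. The counts of higher members were then 3 in PNU-282987 against excision, 2 in PNU-282987 against sham and 2 in excision against sham.

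**Figure D3:**
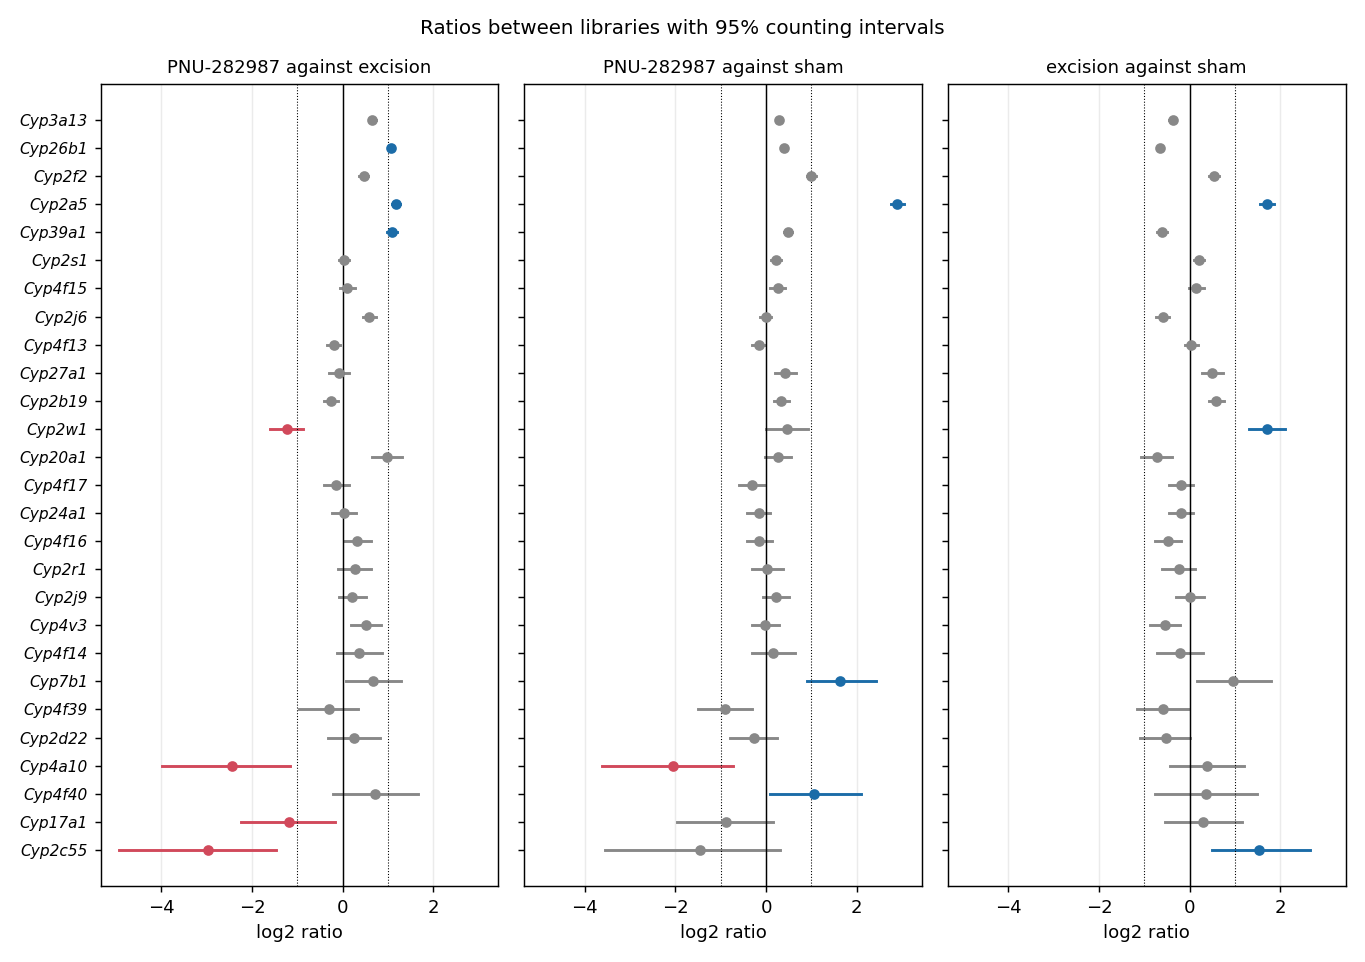
Log2 ratio of each measured member with its 95% counting interval in the comparisons PNU-282987 against excision, PNU-282987 against sham and excision against sham. Blue marks members called higher, red members called lower and grey the rest, dotted lines mark 2-fold, and Cyp2a5 is blue in every panel.

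The xenobiotic and epoxygenation group, families 2 and 3 without Cyp2r1, held 25 members, 10 of them measured. Its summed level was 328 CPM in PNU-282987, 226 CPM in excision and 201 CPM in sham. Without Cyp2a5 the other 24 summed to 245 CPM in PNU-282987, 190.2 CPM in excision and 189.5 CPM in sham. Cyp2a5 (gene ID 13087), the mouse enzyme that hydroxylates coumarin and nicotine, was at 82.4 CPM (3198 counts) in PNU-282987, 36.3 CPM (1347 counts) in excision and 11.1 CPM (433 counts) in sham. PNU-282987 was the highest library and sham the lowest, and Cyp2a5 was the only member called in every comparison. It was 7.43-fold higher in PNU-282987 than in sham (6.72 to 8.23), 2.27-fold higher in PNU-282987 than in excision (2.13 to 2.42) and 3.27-fold higher in excision than in sham (2.93 to 3.66). All 6 goblet markers and most, but not all, measured gland markers were higher in PNU-282987 beside it, as given above. In excision against sham 2 of the 6 goblet markers were higher and 1 lower. The part of such tissue in the Cyp2a5 level was not tested.

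Cyp2f2 (gene ID 13107), known in mouse for activating naphthalene in airway club cells, lies next to Cyp2a5 among the members on chromosome 7. It had the same order of libraries, at 57.0 CPM (2214 counts) in PNU-282987, 41.2 CPM (1531 counts) in excision and 28.5 CPM (1115 counts) in sham. The ratio of PNU-282987 to sham was 1.997 (1.86 to 2.15), just under the 2-fold line, and that of excision to sham was 1.44 (1.34 to 1.56). The annotated antisense gene Gm15883 overlaps 13.5% of the Cyp2f2 exon length, and reads of that gene could be included if strand was not used in counting. Other members on chromosome 7 differed in level and pattern. Cyp2b19, an epoxygenase known from mouse keratinocytes, had 618 counts in PNU-282987, 703 in excision and 491 in sham, with ratios within 1.51-fold. Cyp2s1 (gene ID 74134), an epithelial member inducible through the aryl hydrocarbon receptor AHR, was nearly flat at 37.8 CPM (1466 counts) in PNU-282987, 37.1 CPM (1376 counts) in excision and 32.3 CPM (1260 counts) in sham. Its largest ratio was 1.17 (1.08 to 1.26), in PNU-282987 against sham. The antisense gene Gm26707 overlaps 5.27% of the Cyp2s1 exon length, with the same limit as for Cyp2f2. The drug-induced liver gene Cyp2b10 and the ethanol-oxidising Cyp2e1 stayed at 7 counts or fewer in each library.

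Cyp2w1 and Cyp2c55 were highest in the excision library. Cyp2w1 (gene ID 545817), known in human from fetal gut and colon tumours, had 96 counts (2.47 CPM) in PNU-282987, 216 counts (5.82 CPM) in excision and 70 counts (1.79 CPM) in sham. It was 2.35-fold lower in PNU-282987 than in excision (1.84 to 3.03) and 3.25-fold higher in excision than in sham (2.47 to 4.31). Between PNU-282987 and sham the ratio was 1.38 (1.003 to 1.90). Cyp2c55 (gene ID 72082), a fatty acid oxidase known from mouse colon, had 4 counts in PNU-282987, 30 in excision and 11 in sham. It was 7.85-fold lower in PNU-282987 than in excision (2.76 to 30.7) and 2.87-fold higher in excision than in sham (1.40 to 6.35), with wide intervals at these counts. Macrophage markers were also highest in excision, with a sum of 26.9 CPM in PNU-282987, 40.9 CPM in excision and 18.8 CPM in sham. Whether the cells they mark carried Cyp2w1 or Cyp2c55 was not tested.

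The Cyp2w1 promoter window is chr5:139352366-139352665 on the plus strand of GRCm38.p6. It is shown because, among the measured members, Cyp2w1 had the largest ratio of excision to sham after Cyp2a5. Capitals mark its 1 match to GCGTG, the core letters bound by AHR, read on either strand.
Cyp2w1: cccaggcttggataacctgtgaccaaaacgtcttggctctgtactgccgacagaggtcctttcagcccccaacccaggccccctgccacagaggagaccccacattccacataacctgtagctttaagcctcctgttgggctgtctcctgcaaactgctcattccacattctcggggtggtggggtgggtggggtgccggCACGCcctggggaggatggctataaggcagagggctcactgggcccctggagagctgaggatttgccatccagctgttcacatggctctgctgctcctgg
Of the 41 members with a promoter window in the RefSeq table, 15 held GCGTG (36.6%), beside 32.4% of all 32851 windows. The antioxidant core TGACNNNGC was in 5 of the 41 (12.2%), beside 12.4% of all windows, and AGGTCA in 7 (17.1%), beside 16.3%. TATAAA was in 12 (29.3%), beside 13.6%. A match describes the letters of the window and not a bound site.

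Cyp3a13 and Cyp2j6 had their lowest levels in excision. Cyp3a13 (gene ID 13113), a steroid and drug oxidase with the highest level per kilobase among the members, was at 97.7 CPM (3794 counts) in PNU-282987, 61.8 CPM (2295 counts) in excision and 80.1 CPM (3127 counts) in sham. Its ratio was 1.58 for PNU-282987 against excision (1.5001 to 1.67), 1.22 for PNU-282987 against sham (1.16 to 1.28), and excision was 1.30-fold below sham (1.23 to 1.37). The other Cyp3a members, known from liver and gut, had at most 7 counts in a library. Cyp2j6 (gene ID 13110), an epoxygenase of arachidonic acid, had 1021 counts (26.3 CPM) in PNU-282987, 648 (17.5 CPM) in excision and 1032 (26.4 CPM) in sham. PNU-282987 and sham were at the same level within counting error (1.01-fold lower in PNU-282987, 0.921 to 1.10), and PNU-282987 was 1.51-fold above excision (1.36 to 1.66). Its relative Cyp2j9 had 216 counts in PNU-282987, 178 in excision and 186 in sham, with no ratio whose interval excluded equal levels, and Cyp2d22 had 60, 48 and 73 in PNU-282987, excision and sham.

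Among the genes of family 26, known for the clearance of retinoic acid, only Cyp26b1 was measured at 20 counts or more. Cyp26b1 (gene ID 232174), which oxidises retinoic acid to inactive products, was at 161 CPM (6245 counts) in PNU-282987, 77.1 CPM (2862 counts) in excision and 122 CPM (4752 counts) in sham. Excision was the lowest library. Cyp26b1 was 2.09-fold higher in PNU-282987 than in excision (1.995 to 2.18), 1.32-fold above sham in PNU-282987 (1.27 to 1.37) and 1.58-fold below sham in excision (1.51 to 1.65). Its relatives Cyp26a1 (0 counts in PNU-282987, 2 in excision and 2 in sham) and Cyp26c1 (0, 3 and 0 counts in PNU-282987, excision and sham) were near the detection limit, where a count of 0 allows up to 3 counts, or 0.0773 CPM in the PNU-282987 library. The Cyp26b1 promoter window, chr6:84593761-84594060 on the minus strand of GRCm38.p6, is shown because this member carries nearly all counts of its group, with its 1 match to TATAAA in capitals.
Cyp26b1: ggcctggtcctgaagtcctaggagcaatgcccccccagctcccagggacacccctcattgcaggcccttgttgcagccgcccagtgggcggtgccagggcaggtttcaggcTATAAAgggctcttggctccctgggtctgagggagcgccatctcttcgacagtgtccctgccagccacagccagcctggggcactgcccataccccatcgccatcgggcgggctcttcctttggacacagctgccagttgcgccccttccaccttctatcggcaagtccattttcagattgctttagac

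Of 11 genes that supply or carry retinoids, 9 were measured, and in PNU-282987 against excision none was called higher and 1 lower (median log2 ratio 0.22). In PNU-282987 against sham 1 was higher (median 0.50), and in excision against sham 2 were higher (median 0.15), with none lower in either. Aldh1a2, which makes retinoic acid, had 5 counts in PNU-282987, 26 in excision and 1 in sham. It was 5.44-fold lower in PNU-282987 than in excision (2.06 to 18.1) and 27.4-fold higher in excision than in sham, with an interval from 4.49 to 1121 on a single sham count. Stra6, the cell surface receptor for retinol binding protein, had 16 counts in PNU-282987, 20 in excision and 4 in sham, a ratio of 4.02 for PNU-282987 against sham (1.30 to 16.5) and of 5.26 for excision against sham (1.76 to 21.2). Both genes passed 20 counts only in excision, where they were highest. The synthase genes Aldh1a1 (11342 counts in PNU-282987, 6841 in excision and 8491 in sham) and Aldh1a3 (10549 in PNU-282987, 6965 in excision and 6794 in sham) were not called. Among the 12 measured receptor genes, only the retinoic acid receptor Rarb was called, with 95 counts in PNU-282987, 35 in excision and 65 in sham, 2.59-fold higher in PNU-282987 than in excision (1.74 to 3.94).

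Sterol and bile acid enzymes held 4 members, 3 of them measured. Cyp39a1 (gene ID 56050), an oxysterol hydroxylase of bile acid synthesis, was at 59.3 CPM (2302 counts) in PNU-282987, 27.7 CPM (1028 counts) in excision and 42.3 CPM (1652 counts) in sham. It had the same order of libraries as Cyp26b1, with a ratio of 2.14 for PNU-282987 against excision (1.99 to 2.31) and of 1.40 for PNU-282987 against sham (1.31 to 1.49), and was 1.53-fold below sham in excision (1.41 to 1.65). Lens, endothelial and retinal marker sums were lowest in excision too, the retinal one at 32.3 CPM in PNU-282987, 7.19 CPM in excision and 20.5 CPM in sham. The corneal epithelial and keratocyte sums were also lowest in excision, but not every gene of these lists was. Krt12, Pax6, Dcn, Kera and Ogn were lowest there. Krt5 and Aldh3a1 were lowest in sham, at 17748.4 CPM and 17202.3 CPM, beside 19508.5 CPM and 17548.2 CPM in excision. Lum was lowest in PNU-282987, at 93.4 CPM beside 99.9 CPM in excision. In PNU-282987 the lens, endothelial and keratocyte sums were below sham, and the retinal and corneal epithelial sums above it. The part of any of these cell types in the levels of Cyp26b1, Cyp39a1, Cyp3a13 and Cyp2j6 was not tested.

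The oxysterol hydroxylase gene Cyp7b1 (gene ID 13123) had 65 counts (1.67 CPM) in PNU-282987, 39 counts (1.05 CPM) in excision and 21 counts (0.538 CPM) in sham. It was highest in PNU-282987 and lowest in sham, 3.11-fold higher in PNU-282987 than in sham (1.88 to 5.36) and, short of a call, 1.95-fold above sham in excision (1.12 to 3.50). Cyp27a1 (gene ID 104086), the mitochondrial sterol hydroxylase, had 356 counts in PNU-282987, 360 in excision and 267 in sham. PNU-282987 and excision did not differ beyond counting error (1.06-fold lower in PNU-282987, 0.911 to 1.23), and the ratio to sham was 1.34 in PNU-282987 (1.14 to 1.58) and 1.42 in excision (1.21 to 1.67). Cyp46a1, the cholesterol hydroxylase of brain, had 10 counts in PNU-282987, 9 in excision and 2 in sham, under the minimum. Of the oxysterol partner genes, 4 were measured and none was called in any comparison.

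**Figure D4:**
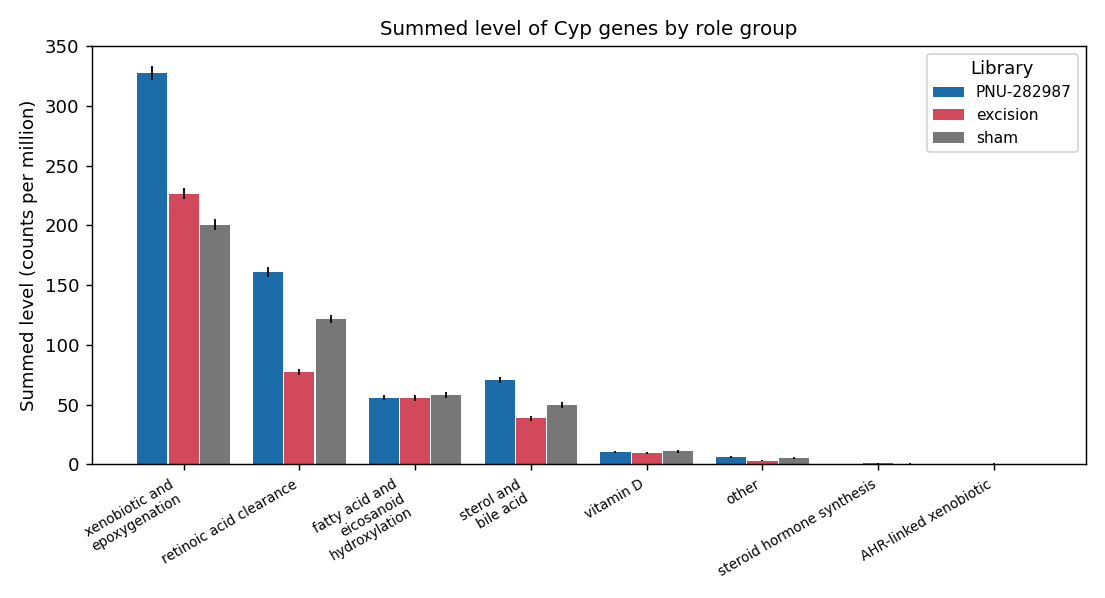
Summed level of the members in each role group (CPM, bars from 0, error bars are 95% Poisson intervals of the summed counts) in the PNU-282987, excision and sham libraries. The xenobiotic group stands at 328 CPM in PNU-282987, 226 CPM in excision and 201 CPM in sham, while the fatty acid group, without Cyp4a12a and Cyp4a12b, stands at 55.8, 55.3 and 57.9 CPM in the same libraries.

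The fatty acid and eicosanoid hydroxylases of family 4 held 12 members, 9 measured, and their summed level was 55.8 CPM in PNU-282987, 55.3 CPM in excision and 57.9 CPM in sham. The counting intervals of these sums overlapped. The sum leaves out Cyp4a12a and Cyp4a12b, whose names fall outside the rule, and with them it was 452 CPM in PNU-282987, 353 CPM in excision and 368 CPM in sham. The Cyp4f genes, which hydroxylate long-chain fatty acids and leukotrienes, include 7 measured members clustered on chromosome 17, and 5 of them (Cyp4f13, Cyp4f14, Cyp4f15, Cyp4f16 and Cyp4f17) stayed within 1.39-fold in every comparison. Among these, Cyp4f13 had 724 counts in PNU-282987, 791 in excision and 814 in sham. Cyp4f39, the mouse counterpart of a human gene of skin barrier lipid synthesis, had 39 counts in PNU-282987, 46 in excision and 73 in sham, and was 1.86-fold below sham in PNU-282987 (1.25 to 2.82). Cyp4f40 (gene ID 631304) had 29 counts in PNU-282987, 17 in excision and 14 in sham, and was 2.08-fold higher in PNU-282987 than in sham (1.07 to 4.27), a call that ended (log2 ratio 0.98) when total counts alone set the scale.

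Cyp4a10 (gene ID 13117), a fatty acid omega-hydroxylase induced in liver through the receptor PPARα, was lowest in PNU-282987. It had 6 counts in PNU-282987, 31 in excision and 25 in sham. It was 5.40-fold lower in PNU-282987 than in excision (2.22 to 15.8) and 4.14-fold lower than in sham (1.66 to 12.3), and 18.4% of its 75-base windows also occur in other genes, so part of its counts could belong to copies. Ppara itself had 189 counts in PNU-282987, 150 in excision and 143 in sham. Cyp4v3 (gene ID 102294), the mouse counterpart of the human gene mutated in Bietti crystalline dystrophy of retina and cornea, had 191 counts in PNU-282987, 127 in excision and 194 in sham. Excision was the lowest library, 1.45-fold below sham (1.15 to 1.83), and PNU-282987 was 1.44-fold above excision (1.14 to 1.81), under the 2-fold line in both. The annotated gene Gm45753 overlaps 8.22% of the Cyp4v3 exon length on the same strand, and reads there could belong to either gene. Of the eicosanoid partner genes, 5 were measured, with 2 higher in PNU-282987 than in excision, 2 lower in excision than in sham and none called in PNU-282987 against sham. Ptgis, the prostacyclin synthase and a P450 outside the naming rule, had 447 counts in PNU-282987, 209 in excision and 668 in sham, 2.04-fold higher in PNU-282987 than in excision (1.73 to 2.42) and 3.04-fold lower in excision than in sham (2.60 to 3.57). Ptgs2, the inducible cyclooxygenase, had 38 counts in PNU-282987, 17 in excision and 40 in sham, 2.14-fold higher in PNU-282987 than in excision (1.18 to 4.04) and 2.24-fold lower in excision than in sham (1.24 to 4.21). The epoxide hydrolase gene Ephx2, which inactivates the products of epoxygenases, had 3019 counts in PNU-282987, 2106 in excision and 3071 in sham, and was not called.

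Of the 3 vitamin D enzymes, 2 were measured and neither was called in any comparison. Cyp24a1 (gene ID 13081), which inactivates the hormone, had 243 counts (6.26 CPM) in PNU-282987, 228 counts (6.14 CPM) in excision and 273 counts (6.99 CPM) in sham. No interval excluded equal levels, and its largest ratio was 1.14-fold lower in excision than in sham (0.951 to 1.36). Cyp2r1, which makes the circulating precursor, had 145 counts in PNU-282987, 115 in excision and 143 in sham, and no interval excluded equal levels either. Cyp27b1, which makes the active hormone, had 9 counts in PNU-282987, 7 in excision and 6 in sham, below the minimum. The vitamin D receptor gene Vdr had 658 counts in PNU-282987, 472 in excision and 460 in sham, and was not called.

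Steroid hormone enzymes and the AHR-linked family 1 had few counts. Cyp17a1 (gene ID 13074), the androgen-forming hydroxylase of gonads and adrenal gland, had 13 counts in PNU-282987, 28 in excision and 24 in sham. It was 2.25-fold lower in PNU-282987 than in excision (1.13 to 4.74), and the interval against sham included equal levels (1.84-fold lower in PNU-282987, 0.898 to 3.93). Cyp11b1 and Cyp21a1 had at most 2 counts in a library. Cyp1a1, the classic AHR target, had 2 counts in PNU-282987, 2 in excision and 0 in sham, where a count of 0 allows up to 3 counts or 0.0768 CPM. Cyp1b1, which in human is a congenital glaucoma gene, had 9 counts in PNU-282987, 18 in excision and 10 in sham, just outside the minimum of 20 counts. Ahr itself had 400 counts in PNU-282987, 281 in excision and 261 in sham. Of 4 AHR targets outside the family 3 were measured, and none was called in any comparison.

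Cyp20a1 (gene ID 77951), a member whose substrate is not established, had 237 counts (6.10 CPM) in PNU-282987, 115 counts (3.10 CPM) in excision and 199 counts (5.10 CPM) in sham. Excision was lowest, and the ratio of PNU-282987 to excision was 1.97 (1.57 to 2.48), just outside the 2-fold line, while excision was 1.64-fold below sham (1.30 to 2.09). Just inside that line were Cyp4f40, Cyp26b1 and Cyp39a1 with the values above. Cyp2u1, a fatty acid hydroxylase of brain and thymus, had 4 counts in PNU-282987, 2 in excision and 4 in sham. Of the 26 members under the count minimum, 24 had at most 10 counts in every library, and 9 were at 0 in PNU-282987, 8 in excision and 4 in sham.

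None of the electron donors of the family differed by 2-fold. Of the 9 genes listed 7 were measured, and none was called in any comparison, with median log2 ratios of 0.06 for PNU-282987 against excision, 0.09 for PNU-282987 against sham and 0.05 for excision against sham. Por, the reductase that serves the microsomal members, had 6802 counts in PNU-282987, 6224 in excision and 4377 in sham. It was 1.56-fold above sham in PNU-282987 (1.504 to 1.62) and 1.496-fold above sham in excision (1.44 to 1.56). The ferredoxin gene Fdx1, which serves the mitochondrial members, had 1467 counts in PNU-282987, 1659 in excision and 1393 in sham.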

How the data were processed

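RNA was sequenced from mouse cornea in 3 libraries, 1 per group. The labels' protocols name TRIzol for extraction and a VAHTS Universal V6 kit for the libraries. The authors deposited whole-number counts of reads per gene, used as deposited. HTSeq and R 3.2.0 appear in the submitters' processing notes. The aligner, build, annotation, strand setting and treatment of shared reads were not given in the sources used here.

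Counts were scaled to library totals times TMM factors (edgeR 4.0.16 in R 4.3.3), 0.980 for PNU-282987, 0.985 for excision and 1.04 for sham. Ratios and exact conditional binomial (Clopper-Pearson) 95% intervals were computed with SciPy 1.17.1 in Python 3.11.15, for genes reaching 20 counts in 1 library or more, over the whole table. A call needed 2-fold and an interval excluding equal levels, and 1 library per group allowed no p-value. Calls were tested on simulated data drawn with counting error only, so that test does not cover the spread between animals. Alternatives used total counts, DESeq2 1.42.0 size factors, other count minimums and other folds.

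Exon lengths, chromosomes, neighbours and 75-base windows shared between transcripts came from GENCODE M21 (GRCm38), and promoters from RefSeq (41 of 53 members matched). No protein sequences were used, so copies were judged from transcript sequence. Named members were those called in a comparison, the 6 highest per kilobase and 12 set by name (Cyp1a1, Cyp1b1, Cyp26a1, Cyp26b1, Cyp24a1, Cyp27b1, Cyp27a1, Cyp7b1, Cyp4v3, Cyp2s1, Cyp2j6 and Cyp2u1), which gave 21. Other genes were named after their values were seen. Members and lists were chosen with earlier results of these data known.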

Additional observations from a re-analysis of the deposited data

How the results depend on the processing

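Scaling by total counts or by DESeq2 size factors left the 6 counts of members called higher or lower within 1.5 times. Of 48 ratios of single members, 47 stayed on their side of the 2-fold call under each scaling: Cyp4f40 was no longer called in PNU-282987 against sham with total counts (log2 ratio 0.98), and Cyp2f2 was called in that comparison with DESeq2 size factors (log2 ratio 1.003). Without a count minimum no count moved by over 1.5 times: 4 were higher and 5 lower in PNU-282987 against excision, 4 higher and 1 lower in PNU-282987 against sham, and 4 higher and 0 lower in excision against sham. With a minimum of 50 counts, 1 member was lower in PNU-282987 than in excision and 0 lower in PNU-282987 than in sham. The higher members were then 3 in PNU-282987 against excision, 2 in PNU-282987 against sham and 2 in excision against sham. At 1.5-fold, 7 members were higher in PNU-282987 than in excision, 2 lower in PNU-282987 than in sham, and in excision against sham 5 were higher and 5 lower. At 3-fold, 0 were higher and 2 lower in PNU-282987 than in excision. No paired analysis was possible because the groups share only 1 replicate number, with 1 library each. The 26 members under 20 counts were left out of the calls by that minimum, and their few counts limit the precision of any ratio.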

Other observations

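Some P450 genes in the table fall outside the naming rule. Cyp4a12b, a fatty acid hydroxylase, was at 373 CPM (14467 counts) in PNU-282987, 286 CPM (10616 counts) in excision and 301 CPM (11742 counts) in sham, and was within 1.30-fold in every comparison. Its copy Cyp4a12a had 934 counts in PNU-282987, 444 in excision and 368 in sham, which was 2.01-fold higher in PNU-282987 than in excision (1.79 to 2.26) and 2.55-fold higher in PNU-282987 than in sham (2.26 to 2.89). Of the 75-base windows of Cyp4a12a, 40.8% occur in Cyp4a12b, and the split of reads within the pair is uncertain. Cyp51, the sterol demethylase of cholesterol synthesis, had 8656 counts in PNU-282987, 9573 in excision and 9307 in sham, within 1.16-fold in every comparison.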
